A study of Mus musculus with 9 samples.

Results

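The RNA of untreated CD8 T cells 6 h after activation was described in 3 control libraries, taken by their labels from the 9 libraries of the series, with no contrast to any other group. Naive CD8 T cells from the spleen of wild-type mice were placed on plate-bound antibodies to CD3 and CD28 at 4 µg/mL and received no compound. The other 6 libraries came from cells activated alike with D-2HG or L-2HG, the mirror-image forms of 2-hydroxyglutarate, and entered only an alternative scaling. No library of resting cells was used, so every value below is a level at 6 h and not a response to activation. The labels do not say whether the 3 replicates came from separate mice or cultures, so the spread between them may be technical.

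Antibodies to CD3 cross-link the T cell receptor complex and antibodies to CD28 supply the costimulatory signal. Within hours the calcineurin and NFAT, MAP kinase and AP-1, and NF-kB pathways switch on early genes: transcription factors such as Egr1 and Nr4a1, surface receptors such as Cd69 and Il2ra, and secreted signals such as Il2 and Tnf. Glycolysis, amino acid uptake and nucleotide synthesis are known to follow, in large part under control of Myc, before the first division. CD8 T cells later become killer cells that carry granzymes and secrete interferon gamma.

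Totals in replicates 1, 2 and 3 were 4773400, 1990896 and 5731885 counts, so replicate 2 was the shallowest. Predicted genes Gm10800 and Gm10801, which match satellite repeats, took 5.35% of the counts in replicate 2 against 1.43% and 0.91% in replicates 1 and 3. Log2 CPM of 9052 genes gave Pearson's r of 0.978 between replicates 1 and 3, 0.941 between 1 and 2 and 0.957 between 2 and 3, a description across genes, which are not independent replicates. All 9 markers of CD8 T cells were above the background of silent genes, and their summed abundance was 3600 to 4890 CPM (counts over the scaled total, times 1e6). Most of these markers, such as Lck and Cd3e, are shared with other T cells. The coreceptor genes Cd8a and Cd8b1 averaged 876 and 517 CPM. Markers of CD4 and regulatory T cells summed to 10.2 to 19.4 CPM, of B cells to 8.27 to 14.5, of macrophages and monocytes to 4.1 to 6.77, with Itgam and Cd14 at 0, and of neutrophils to 0.216 to 0.968, with S100a8 and Ly6g at 0. In Itgam 72.4% of 50-base stretches occurred in other genes' transcripts, so its 0 is uncertain. Sums for dendritic cells were 15 to 22.5 CPM, for NK cells 2.11 to 3.88, for platelets 1.76 to 7.26, for erythroid cells 0.647 to 8.23, and for stromal and endothelial cells 17 to 49.4. The plasma cell list summed to 59.3 to 175 CPM through Xbp1, which T cells also express. In the CD4 and regulatory T cell list, Ikzf4 and Ctla4 averaged 7.22 and 6.59 CPM. Foxp3, Zbtb7b and Cd4 averaged 1.68, 0.131 and 0.117 CPM. The dendritic list and the stromal and endothelial list each had 1 member above background, and their highest members were Xcr1 and Pecam1.

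Levels are given below as CPM per kb of merged exons, the scale on which genes are set against each other unless CPM without length is named. The background was the 99th percentile of olfactory, vomeronasal and trace amine receptor genes, which T cells do not use, and lay at 0.418, 0.893 and 0.278 CPM per kb in replicates 1, 2 and 3. A gene counted as above it when it passed in each library, and 8513 of 21601 protein-coding genes (39.4%) did. In pooled RNA, fewer cells expressing a gene and less RNA per cell cannot be told apart.

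The 8 highest cytokine genes were 3 chemokines, 4 TNF family ligands and Mif. Xcl1, the lymphotactin that attracts XCR1-bearing dendritic cells, reached 12870, 7995 and 11180 CPM per kb in replicates 1, 2 and 3, or 6730, 4182 and 5846 CPM. Its mean of 10680 CPM per kb (SD 2474, n = 3) ranked 3 among all protein-coding genes, behind only Gm10800 and the mitochondrially encoded mt-Nd1. Ccl4, an inflammatory chemokine, followed at 3529, 2236 and 2809 CPM per kb and ranked 10 of all genes. Replicate 2 was the lowest for both, and the ranges of the 2 genes did not overlap.

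Mif, the macrophage migration inhibitory factor that many resting cells also make, measured 2175, 1326 and 1919 CPM per kb. Ccl3, another inflammatory chemokine, had 1151, 619.7 and 885 CPM per kb. Both were again lowest in replicate 2. Ltb, the membrane-anchored lymphotoxin beta, stood at 379, 373.5 and 479 CPM per kb, and Tnf, the central inflammatory cytokine of activated T cells, at 438, 342.5 and 379. Those 2 were the only neighbours among the 8 highest cytokine genes whose ranges overlapped, so their order is within the spread. Lta, the secreted lymphotoxin alpha, had 326.5, 184 and 274 CPM per kb, and Tnfsf14, the ligand LIGHT, 134, 109 and 128. Lowest values fell in replicate 2 for all 8 genes.

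Several of these genes lie close together in mm10. Ltb (chr17:35194439-35196320), Tnf (chr17:35199381-35202007) and Lta (chr17:35203165-35205351) form the lymphotoxin and TNF cluster, and Ccl3 (chr11:83647844-83649355) and Ccl4 (chr11:83662584-83664683) are neighbours in a chemokine cluster. None of the 50-base stretches of Ccl3, Ccl4, Ltb, Tnf, Lta or Tnfsf14 occurred in transcripts of another gene. Shares of 10.8% for Xcl1 and 40.5% for Mif did occur elsewhere, which makes the Mif value uncertain where reads with several placements were counted or dropped.

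**Figure D1:**
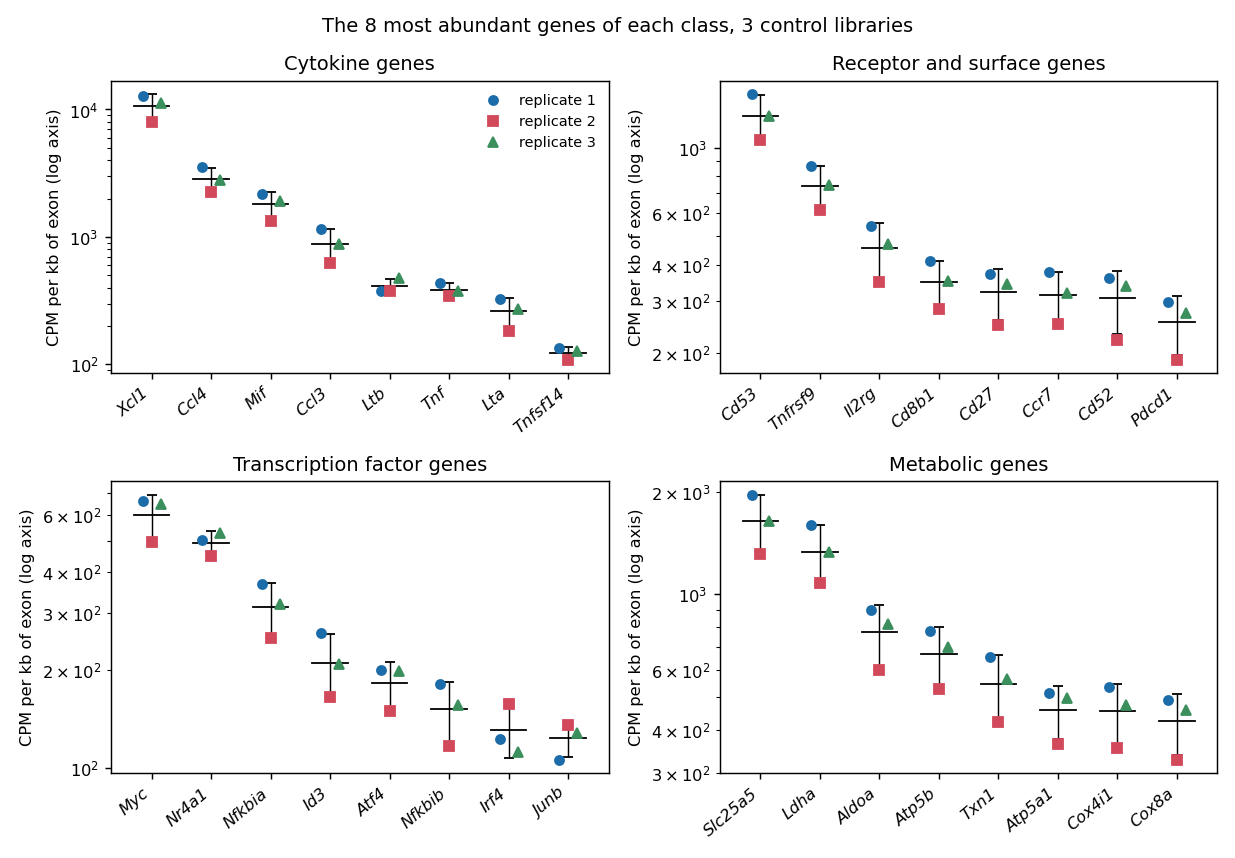
Level in CPM per kb of exon (log axis) of the 8 most abundant genes of each class, with 1 symbol per control library, the mean as a line and the SD as bars (n = 3). Replicate 2 was the lowest for all 8 cytokine, receptor and metabolic genes shown and for 6 of the 8 transcription factor genes.

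Below these 8 came a wide gap. Tnfsf14, the eighth, averaged 124 CPM per kb, and Il2, the T cell growth factor and the ninth, 31.4. Its levels were 38.3, 18.2 and 37.7 CPM per kb, and the CV of Il2 (SD over mean) was 36.4% with replicate 2 and 0.679% without it. Il16, a chemoattractant that lymphocytes express at rest, was the only further interleukin above background, at 6.36, 6.09 and 7.87 CPM per kb, so 2 of 35 interleukin genes passed.

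Ifng, the hallmark cytokine of killer T cells, was low at 5.33, 8.97 and 4.08 CPM per kb, from a mean of 28.7 counts per library. Its range overlapped that of Il16 and lay under every Il2 value. Gzmb, which encodes the killing protease granzyme B, was as low at 5.71, 6.74 and 5.51 CPM per kb. Of 108 protein-coding cytokine genes 24 were above background: 2 interleukins, 5 of 19 interferons and growth factors, 9 of 18 TNF family ligands and 8 of 36 chemokines. Ccl5, a chemokine of memory and effector cells, was chosen here after its values were seen: it had 4.27 and 4.95 CPM per kb in replicates 1 and 3 and 31.3 in replicate 2.

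Upstream sequences of 4 cytokine genes are shown because they span the range from the highest level to Il2, and because the antibody-driven factors NFAT, AP-1 and NF-kB are known to act through such regions. Each run is the 250 bases before the RefSeq start, from RefSeq on GRCm38.p6, written 5′ to 3′ on the gene's strand, the minus strand in all 4. Capitals mark matches, on either strand, to the core word of NFAT sites, GGAAA. They also mark the NF-kB word, which is GGG followed by any 5 bases and then CC. The TATA box was searched as TATAAA, the AP-1 site as TGANTCA and the cyclic AMP response element (CRE) as TGACGTCA. A GGAAA match that lies on the opposite strand appears in these runs as its reverse complement.
Xcl1 (chr1:164935523-164935772): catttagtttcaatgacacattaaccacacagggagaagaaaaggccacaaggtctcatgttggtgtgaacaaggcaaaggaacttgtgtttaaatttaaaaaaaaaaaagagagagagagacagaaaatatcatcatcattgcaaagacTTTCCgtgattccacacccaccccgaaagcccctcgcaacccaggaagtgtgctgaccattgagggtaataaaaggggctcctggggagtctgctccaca
Ccl3 (chr11:83649379-83649628): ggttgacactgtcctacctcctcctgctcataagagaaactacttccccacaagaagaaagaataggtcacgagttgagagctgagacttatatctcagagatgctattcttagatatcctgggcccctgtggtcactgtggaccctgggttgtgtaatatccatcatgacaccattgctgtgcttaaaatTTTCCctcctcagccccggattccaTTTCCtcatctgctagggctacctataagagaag
Tnf (chr17:35202008-35202257): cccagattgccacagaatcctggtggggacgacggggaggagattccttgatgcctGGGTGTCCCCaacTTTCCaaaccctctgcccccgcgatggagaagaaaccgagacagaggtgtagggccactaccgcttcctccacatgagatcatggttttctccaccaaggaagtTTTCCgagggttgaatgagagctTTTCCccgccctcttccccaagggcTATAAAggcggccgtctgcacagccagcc
Il2 (chr3:37125955-37126204): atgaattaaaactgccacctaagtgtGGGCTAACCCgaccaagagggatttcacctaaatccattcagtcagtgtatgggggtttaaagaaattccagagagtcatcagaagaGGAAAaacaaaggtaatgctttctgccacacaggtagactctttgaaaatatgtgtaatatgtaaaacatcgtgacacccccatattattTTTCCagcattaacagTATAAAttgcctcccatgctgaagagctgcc

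Xcl1 held 1 GGAAA match, at bases -100 to -96 from the start, and none of the other motifs. Ccl3 held 2 GGAAA matches, at -59 to -55 and -34 to -30. Tnf had 3 GGAAA matches, 1 NF-kB match at -194 to -185 and a TATA box at -29 to -24, and Il2 had 2, 1 and 1 of the same, with its TATA box at -31 to -26. Such short words are common: of 20117 mouse promoters of this length, 54.9% held GGAAA, 52.7% the NF-kB word, 11.2% TATAAA, 6.12% TGANTCA and 1.98% TGACGTCA. The matches describe letters and show no binding.

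Among receptor and surface genes, the tetraspanin Cd53 led with 1522, 1061 and 1281 CPM per kb. Tnfrsf9, the costimulatory receptor 4-1BB that is known to appear after T cell receptor signalling, was next with 868, 616 and 748. Their ranges did not overlap each other, nor did that of Tnfrsf9 overlap the next gene's. Il2rg, the common gamma chain shared by receptors for several interleukins, had 543.5, 350 and 470.5 CPM per kb, with 42.0% of its 50-base stretches found in other genes' transcripts.

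From Il2rg down, no neighbouring genes among the 8 differed beyond their spread. Cd8b1, the beta chain of the CD8 coreceptor, had 410.2, 282 and 353 CPM per kb, Cd27, a TNF receptor family costimulator, 371, 250.1 and 344.5, and Ccr7, which guides naive cells into lymph nodes, 377, 250.3 and 319.7. Cd52, a small glycoprotein of lymphocytes, reached 360.0, 222 and 339 CPM per kb. Pdcd1, the inhibitory receptor PD-1, measured 299, 190.1 and 275. All 8 were lowest in replicate 2 and highest in replicate 1. The eighth place was narrow: Pdcd1 averaged 255 CPM per kb and Cd8a, the ninth, 241.

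Of 161 receptor genes 104 were above background. The share was 10 of 11 in the T cell receptor complex and coreceptors, 23 of 26 among activation, adhesion and homing antigens, 19 of 23 among costimulatory and inhibitory receptors and 15 of 23 in the TNF receptor family. It was 23 of 47 among cytokine receptors and 14 of 31 among chemokine and lipid homing receptors. Cd69, the early activation antigen that holds cells in lymphoid tissue, had 238, 156 and 202 CPM per kb, and Il2ra, the alpha chain that gives the IL-2 receptor high affinity, 75.8, 71.0 and 71.4.

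Some receptors were named after their values were seen, to show the range within the groups. Il7r, the survival receptor of resting T cells, had 11.1, 17.5 and 11.6 CPM per kb. Inhibitory receptors other than Pdcd1 spread widely: Cd160, Vsir, Btla and Tigit averaged 129, 127, 30.8 and 24.2 CPM per kb. Ctla4 was lower with 4.07, 2.91 and 1.51 CPM per kb, as was Lag3 with 3.89, 4.59 and 3.09. Havcr2 was under the background in replicates 1 and 2, at 0.159 and 0 CPM per kb. In replicate 3 it had 0.582, above the background of 0.278 there. In these groups the naive marker Ccr7 and the activation markers Tnfrsf9 and Cd69 were all well above the background in the same libraries.

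**Figure D2:**
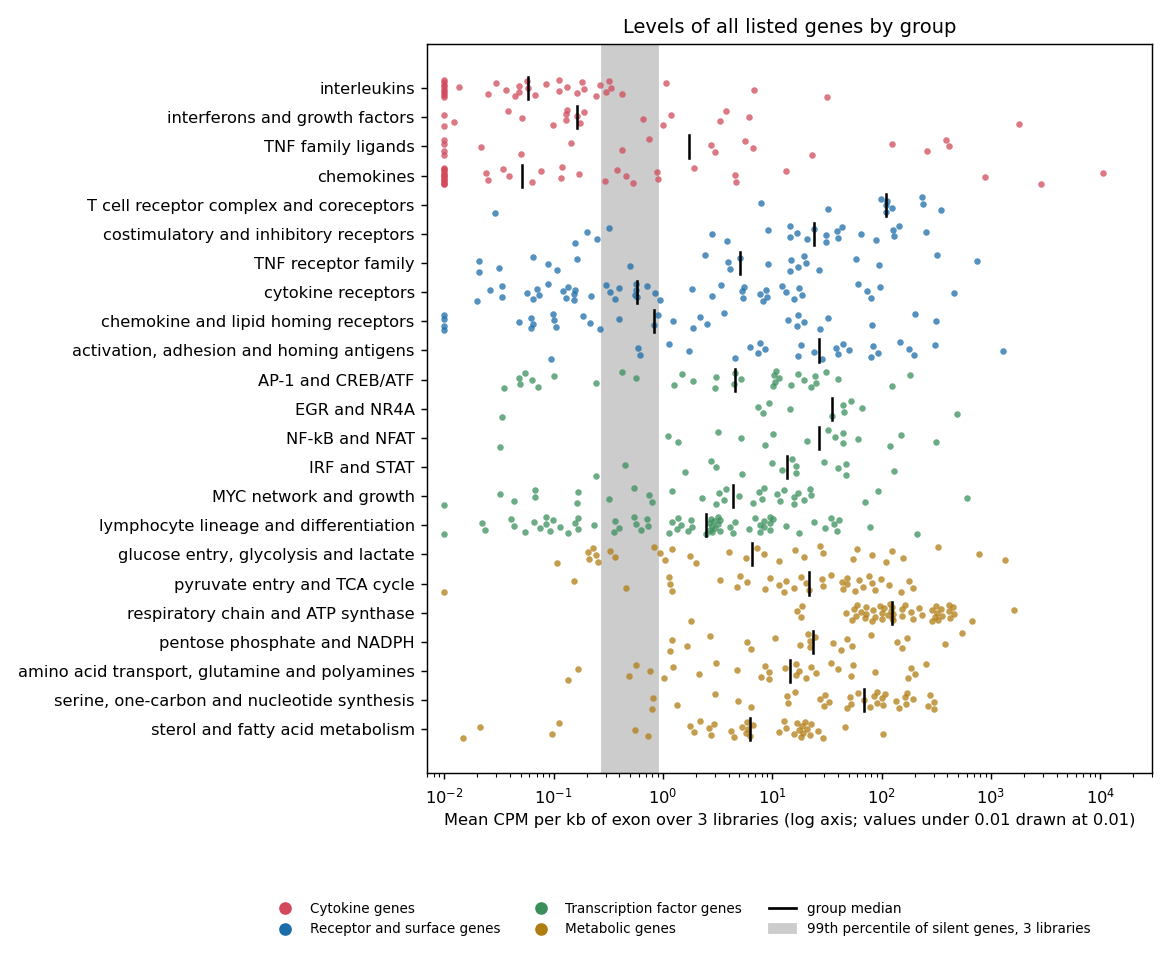
Mean level over the 3 control libraries (CPM per kb of exon, log axis) of every listed protein-coding gene, 1 point per gene, by group, with the group median as a black line. The grey band spans the background of the 3 libraries, 0.278 to 0.893: only 2 of 35 interleukins and all 49 respiratory chain and ATP synthase genes passed it in each library.

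Myc, the growth regulator that T cells need to raise their metabolism, had the highest level per kb of the transcription factor genes, with 661, 496 and 646 CPM per kb. Nr4a1, an orphan nuclear receptor used as a reporter of T cell receptor signalling, followed with 504, 447 and 528. Their ranges overlapped, so their order is within the spread, although Myc was the higher of the 2 in each library. Nfkbia, the inhibitor IkB-alpha that NF-kB itself induces, came next at 368, 251 and 318 CPM per kb, below every value of Nr4a1.

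Id3, an inhibitor of E proteins, had 259.7, 164.5 and 208 CPM per kb, and Atf4, which drives amino acid synthesis and uptake genes, 199.9, 149.8 and 199. Nfkbib, the inhibitor IkB-beta, had 181, 116.5 and 156. Irf4, which scales with the strength of T cell receptor signals, differed from these in that replicate 2 was the highest, with 123, 157 and 112. Junb, an AP-1 subunit, was likewise highest in replicate 2, with 106, 136 and 128 CPM per kb. From Nfkbia to Junb no neighbours differed beyond their spread, and Nfkbid, the ninth, averaged 119.5 CPM per kb against 123 for Junb.

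Of 179 transcription factor genes 129 were above background. That held for 23 of 33 AP-1 and CREB/ATF genes, 10 of 11 EGR and NR4A genes, 14 of 16 in NF-kB and NFAT, 14 of 16 in IRF and STAT, 24 of 34 in the MYC network and 44 of 69 lineage and differentiation genes. Egr1, an immediate early gene, had 33.5, 52.5 and 49.8 CPM per kb. Named after their values were seen, the naive and memory regulators Tcf7 and Lef1 averaged 77.7 and 17.6 CPM per kb. Tbx21 and Eomes, which drive effector differentiation, averaged 4.09 and 0.562, and Prdm1, a later effector regulator, 0.168. Eomes and Prdm1 did not pass the background. Naive regulators were not all higher than effector factors: Klf2 and Foxo1 averaged 4.37 and 2.81 CPM per kb, and the effector-associated Batf and Id2 17.3 and 13.3.

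Per kb, the listed metabolic genes, all encoded in the nucleus, were led by Slc25a5, the mitochondrial carrier that exchanges ADP for ATP, at 1959, 1315 and 1646 CPM per kb, and by Ldha, the lactate dehydrogenase subunit of fermentative glycolysis, at 1600.0, 1077 and 1332. Their ranges overlapped, and Slc25a5 was the higher in each library. In Slc25a5, 46.6% of 50-base stretches occurred in other genes' transcripts, against 16.6% in Ldha. Aldoa, the glycolytic aldolase, had 903, 601 and 816.5 CPM per kb, below every Ldha value. The list left out the 13 mitochondrially encoded protein genes. Of these, mt-Nd1, mt-Cytb, mt-Co1 and mt-Nd5 averaged 11200, 5427, 2594 and 1872 CPM per kb, above Slc25a5 at 1640, and the others lay below it.

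Behind Aldoa, 4 of the remaining 5 genes belong to respiration. The ATP synthase subunits Atp5b and Atp5a1 had 782, 527 and 700.4 CPM per kb and 512, 364 and 498. Thioredoxin, Txn1, which hands electrons from NADPH to proteins, lay between them at 655, 422 and 564. The cytochrome c oxidase subunits Cox4i1 and Cox8a had 534, 353 and 475 and 490.8, 327 and 457. Neighbours from Aldoa to Cox8a did not differ beyond their spread, and replicate 2 was the lowest in all 8 genes.

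Of 242 metabolic genes 217 were above background, the highest share of the 4 classes at 89.7%. All 49 respiratory chain and ATP synthase genes, all 22 of the pentose phosphate and NADPH group and all 35 of serine, one-carbon and nucleotide synthesis passed, against 21 of 32 in glucose entry, glycolysis and lactate, where tissue-specific isoenzymes are listed too. Passing counts were 33 of 37 for pyruvate entry and the TCA cycle, 25 of 30 for amino acid transport, glutamine and polyamines, and 32 of 37 for sterol and fatty acid metabolism.

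The leading genes of the other groups were Hprt, the purine salvage enzyme, at 359.5, 235 and 318 CPM per kb, and Slc3a2, the heavy chain of the large amino acid transporter, at 291, 195 and 272. Mdh2, the mitochondrial malate dehydrogenase, had 229.9, 136 and 209 CPM per kb, and Elovl1, a fatty acid elongase, 111, 89.3 and 105.5. The genes that bring glucose in and trap it were far lower than Ldha: Slc2a1, the glucose transporter GLUT1, had 19.7, 17.8 and 21.3 CPM per kb and Hk2, hexokinase 2, 11.99, 11.59 and 11.02. Their CVs were 8.87% and 4.22% with TMM scaling.

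Spread between the libraries exceeded counting error for most well-counted genes. A chi-square test of the 3 counts against the scaled totals, Benjamini-Hochberg adjusted over 9052 protein-coding genes with a mean count of at least 10, called 5245 of them, or 57.9%, at an adjusted p under 0.05. The test compares these libraries and not conditions. Over the members tested, 15 of 26 cytokine genes (57.7%), 68 of 108 receptor genes (63.0%), 80 of 133 transcription factor genes (60.2%) and 177 of 222 metabolic genes (79.7%) were called, the first 3 shares near the background of 57.9%. The share rose with depth over all genes, from 28.8% at mean counts of 10 to 30 to 96.0% at 1000 and over, so the metabolic share stands beside higher counts. All 8 leading genes of each class were called, with the largest adjusted p, 0.00453, for Tnfsf14. Among low genes Ifng was called (adjusted p = 0.0240), while Gzmb (0.791), Hk2 (0.596) and Slc2a1 (0.246) were not.

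The median CV was 27.8% for cytokine genes, 18.7% for receptor genes, 20.7% for transcription factor genes and 20.9% for metabolic genes, against 21.5% for all protein-coding genes tested. Counting alone would give medians of 14.3%, 6.28%, 8.23%, 4.46% and 9.59%. Without replicate 2 these medians were 14.6%, 10.1%, 10.4%, 8.58% and 11.5%, and 2598 of 9257 genes tested (28.1%) were called. The share was 41.7% (3760 of 9019) without replicate 1 and 52.3% (4644 of 8876) without replicate 3. With fewer libraries the test also has less power. An SD from 3 values is loose: its 95% interval runs from 0.52 to 6.28 times the value.

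**Figure D3:**
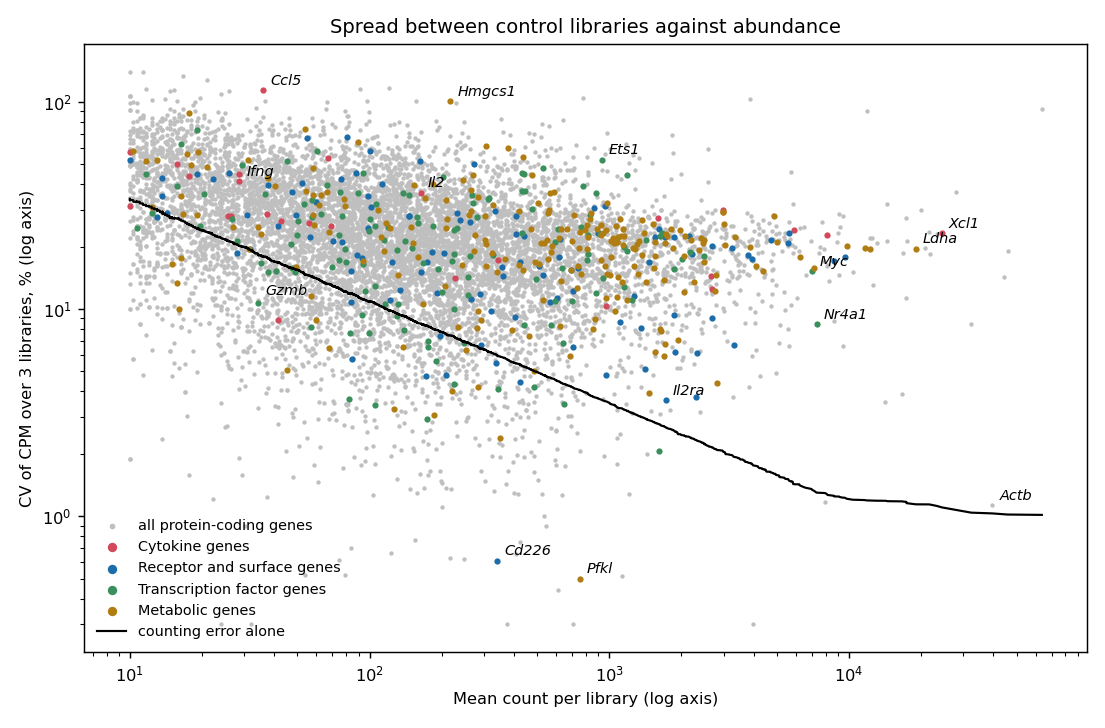
CV of CPM over the 3 control libraries (percent, log axis) against mean count per library (log axis) for 9052 protein-coding genes, grey, and the 4 classes, coloured, with the CV that counting error alone would give as a black line. CVs under 0.3% are drawn at 0.3%. Abundant genes such as Xcl1 (23.2%) and Ldha (19.6%) lay far above the line, while Pfkl (0.499%) and Cd226 (0.610%) lay under it with TMM scaling.

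The lowest and highest CVs among members with a mean count of at least 100 are given next, with TMM scaling and all 3 libraries. Among cytokines, Tnfsf14 had a CV of 10.3% and Tnf 12.4%, and Ccl3 and Il2 were the highest at 30.02% and 36.4%. That order depended on the libraries. Without replicate 2 the CV of Il2 was the lowest of these at 0.679%, with the CV of Tnfsf14 at 2.80% and the CV of Ccl3 at 18.1%. Without replicate 3 the CV of Ltb was 3.93%, under the CV of Tnfsf14 at 17.1% and the CV of Tnf at 20.2%. Among receptors, Cd226, an activating receptor, had 16.9, 16.9 and 16.7 CPM per kb (CV 0.610%), and Il2ra had a CV of 3.63%. Neither was called, nor were Nfkb1, which encodes an NF-kB subunit, at 32.1, 31.9 and 33.1 CPM per kb (CV 2.06%), or E2f4, a cell cycle repressor, with a CV of 2.96%. The glycolytic Pfkl, which encodes a phosphofructokinase, had 27.2, 27.3 and 27.4 CPM per kb (CV 0.499%). With DESeq2 size factors the CV of Cd226 was 8.79%, the CV of Il2ra 11.7%, the CV of Nfkb1 10.4%, the CV of E2f4 11.8% and the CV of Pfkl 9.03%, so the small values depend on the scaling. With library totals and no TMM the CV of Cd226 was 3.69% and the CV of Il2ra 2.24%. Except for Il2ra the TMM-scaled CVs were under those that counting alone would give, and a gene that was not called is not shown to be equal in the libraries.

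At the other end, Hmgcs1, which makes the sterol precursor HMG-CoA, had 5.35, 34.5 and 8.08 CPM per kb (CV 100.7%). Ets1, a lymphocyte transcription factor, had 16.6, 48.1 and 26.9 (CV 52.7%), and Xbp1, a factor of the unfolded protein response, 18.0, 48.4 and 53.4 (CV 48.0%). The receptors Itgae, an integrin of tissue-resident cells, and Ifnar1, of type I interferon, had CVs of 58.0% and 51.9%. In Hmgcs1, Ets1, Itgae and Ifnar1 replicate 2 was the highest, while Xbp1 was set apart by a low replicate 1. Without replicate 2 the mean level of Hmgcs1 was 6.596 CPM per kb in place of 16.0. Amd1 (CV 61.4%), of polyamine synthesis, and Ahcy (2.39%), which recycles S-adenosylhomocysteine, shared 87.6% and 77.0% of their 50-base stretches with other genes, so their values are uncertain.

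Replicate 2 departed from the others by gene group, not only gene by gene. Its log2 ratio to the mean of replicates 1 and 3 had a median of 0.04 over all 9052 genes, -0.51 over the 49 respiratory chain and ATP synthase genes, -0.45 over 10 genes of the T cell receptor complex and -0.33 over glycolysis. Medians were 0.42 in IRF and STAT genes, 0.34 in EGR and NR4A genes and 0.33 in the MYC network. Of the respiratory genes 47 of 49 were lowest in replicate 2, against 3547 of all 9052.

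Exon length moved with the same ratio. The median was -0.34 in genes with under 3450 bases of exon, 0.09 between 3450 and 6031 bases and 0.38 above, with equal numbers of genes in the 3 bins. Respiratory genes had a median exon length of 1831 bases, IRF and STAT genes of 5539 and all genes of 4603. Ribosomal protein genes, with 1754 bases, had a median ratio of -0.55. The share of satellite counts and the depth also set replicate 2 apart, as given above, and the part of length, satellite counts and depth in these group values was not tested. Medians of the shortest and the longest genes kept their signs under all 4 scalings tried, as did those of the respiratory chain, T cell receptor complex, glycolysis, IRF and STAT, EGR and NR4A and MYC network groups. DESeq2 size factors moved the median of all genes from 0.04 to -0.18, and those of IRF and STAT, EGR and NR4A and the MYC network to 0.18, 0.11 and 0.12.

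**Figure D4:**
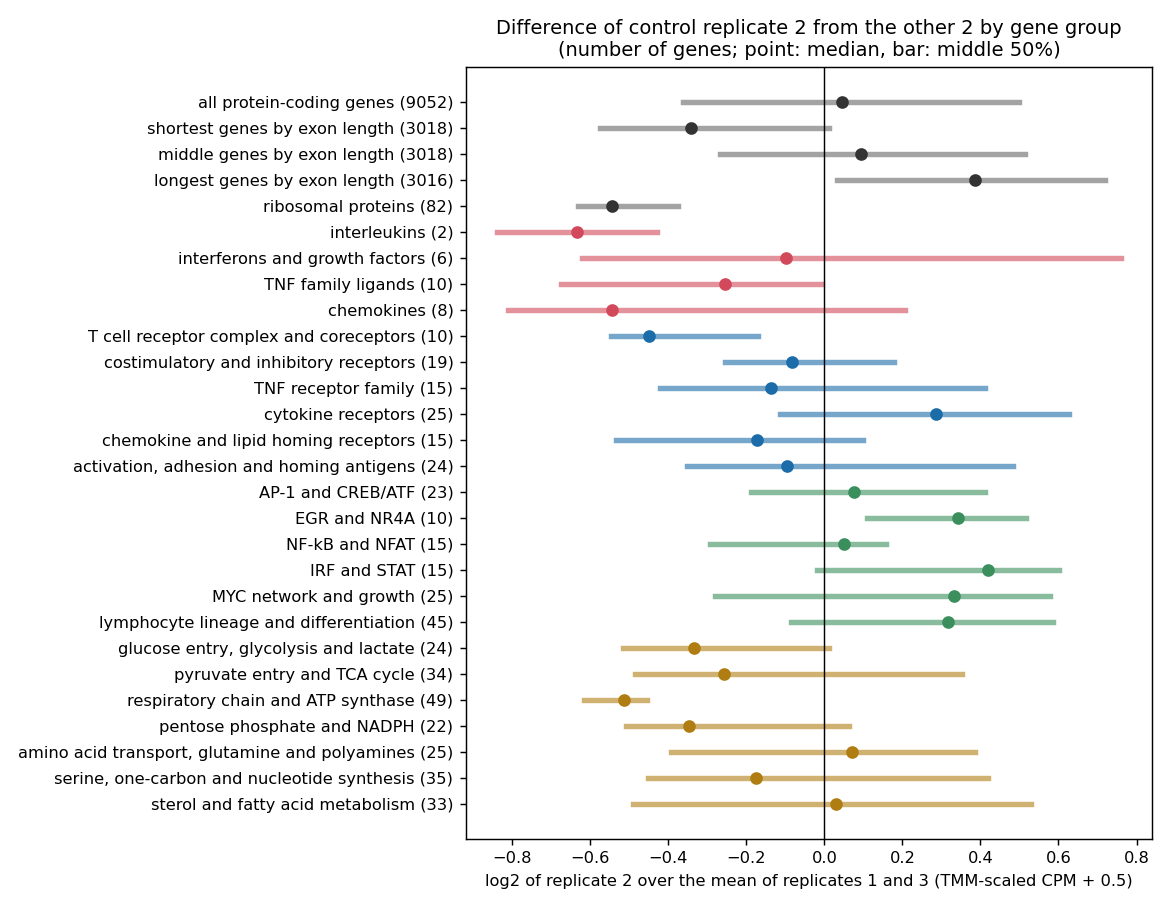
Log2 ratio of control replicate 2 to the mean of control replicates 1 and 3, from TMM-scaled CPM plus 0.5, for all tested genes, 3 bins of exon length, ribosomal protein genes and each listed group, with the number of genes in brackets, the median as a point and the middle 50% of genes as a bar. Short genes and the respiratory chain lay to the left (medians -0.34 and -0.51), and long genes and IRF and STAT genes to the right (0.38 and 0.42).

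The order of the leading genes was then compared within each library. Of the 7 neighbouring pairs among the 8 highest genes, 6 kept their order in each library for cytokines, 5 for receptors, 5 for transcription factors and 6 for metabolic genes, while 6, 2, 1 and 1 of these pairs had ranges that did not overlap. The choice of length also changed the order: with the longest transcript as length, the level of Cd52 was 709 CPM per kb, above the level of Il2rg at 649.8, and the level of Ldha was 2437, above the level of Slc25a5 at 2177. Between replicates 1 and 3, 97 of the 100 most abundant genes were shared, and replicate 2 shared 91 with replicate 1 and 93 with replicate 3. Without correction for length the same 8 cytokine genes led by CPM. Only 3 of the 8 receptor, 5 of the 8 transcription factor and 5 of the 8 metabolic genes did so. Ptprc, Foxp1 and Mat2a were among the genes that moved up. The leading gene also changed in the last 2 classes, to Nr4a1 with a mean of 1730.0 CPM against 1633 for Myc, and to Ldha with 4424 CPM against 2700.0 for Slc25a5. Actb, the cytoskeletal actin often used for scaling, had 3622, 3546 and 3561 CPM per kb (CV 1.13%), while Xcl1 and Ldha, also among the best counted genes, had CVs of 23.2% and 19.6%. These values rest on the libraries and the scaling: the CV of Xcl1 was 9.54% without replicate 2 and 35.8% without replicate 3, the CV of Ldha 12.5% and 30.4%, and the CV of Actb 0.790% and 4.44%, and 9.90% with DESeq2 size factors.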

How the data were processed

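Polyadenylated RNA was primed with oligo(dT), amplified by a limited PCR and cut by Tn5 transposase, per the labels' protocols. The authors deposited whole-number counts per gene symbol, made with STAR 2.7.3a and featureCounts on mm10, per the submitters' processing notes. Counting settings, strand and the annotation release are not given in the sources used here. A normalized table was not used.

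The 3 control columns were scaled by TMM (edgeR 4.0.16, R 4.3.3) over those 3 libraries and given as CPM. Gene types and merged exon lengths came from GENCODE M21. Of 55011 symbols 2002 had no entry there, with 0.593% of control counts, and 21601 were protein-coding. Background used 1657 of 1745 sensory receptor genes, without the 5% with most counts per kb. CV is the SD over the mean of 3 CPM values. Spread was tested per gene by chi-square (2 degrees of freedom) on genes with a mean count of at least 10 (scipy 1.17.1), after the calculation was tested on simulated data. Each pair of replicates gave a chi-square of 10.4 to 34.0 per degree of freedom, so none is a duplicate. Reads without molecular identifiers are not independent molecules, and the test covers counting error only. Alternatives were other scalings and count minimums, the longest transcript as length, thinning, background subtraction and leaving out each replicate.

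Members and lists were chosen with earlier results of these data known. In each class the text names the 8 highest levels, the 2 lowest and 2 highest CVs at a mean count of at least 100, the top gene of each group, the 10 highest genes of all in part, and Il2, Ifng, Tnf, Gzmb, Myc, Cd69, Il2ra, Egr1, Nr4a1, Ldha, Hk2 and Slc2a1. Positions are mm10, 1-based. Promoters came from RefSeq for 9 of the 10 cytokine genes sought. Some values are not reported here.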

Additional observations from a re-analysis of the deposited data

How the results depend on the processing

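Replicate 2 decided most of the spread. Leaving out each replicate in turn, 2598 to 4644 genes were called, or 28.1% to 52.3% of those tested. The median CV then ran from 11.5% to 24.7% for protein-coding genes, 14.6% to 34.4% for cytokine genes, 10.1% to 23.0% for receptor genes, 10.4% to 22.6% for transcription factor genes and 8.58% to 30.4% for metabolic genes. The lowest values, of genes called and of each median, were all without replicate 2. With no minimum count the median CV was 45.7% for protein-coding, 107.0% for cytokine and 28.2% for receptor genes, since genes with few counts enter. The other scalings, thinning, background subtraction and a minimum mean count of 50 moved neither the number called nor any of these medians by over 1.5 times. The number of protein-coding genes above the background of silent genes ran from 8248 to 9178, and background subtraction gives no value for it. The 8 leading cytokine genes were the same under all 9 alternatives. With the longest transcript as length, Cd8a replaced Pdcd1, Nfkbid replaced Irf4, and Atp5g3 and Pkm replaced Atp5a1 and Cox8a. Without replicate 2 Nfkbid replaced Junb, without replicate 3 Ndufa1 replaced Cox8a, and with thinning Cox6b1 did. Of 63 named genes, leaving out replicate 2 moved 50 CVs by over 1.5 times, leaving out replicate 3 moved 43, leaving out replicate 1 moved 6 and DESeq2 size factors moved 19, so single CVs are loose. The longest transcript raised the levels of named genes by up to 2.91 times, among them Ldha to 2437 CPM per kb. No paired analysis was possible because 1 group was described.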
